A study of Mus musculus with 30 samples.

Results

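Translation initiation and elongation factors are the proteins that bring the initiator tRNA, the small and large ribosomal subunits and the mRNA together and then move the ribosome along the message. Their genes were taken by symbol, as every gene named Eif1 to Eif6 or Eef1 to Eef2, with any ending, that had a probe set of its own on the array. The rule gave 58 of the 18194 genes with such a probe set, and all 58 had a mean over the 30 arrays above the limit on low values (5.33) and so were among the 14548 genes tested. Within villi 1 of them, Eif2ak4, averaged below that limit, at 4.34, and was tested there through its crypt level. They were sorted into 14 groups by complex and role. Other symbols of these families, such as Eif4g1 and Eif2s1, were not analysed here.

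Initiation starts when eIF2 carries the initiator tRNA to the small subunit, where eIF1A, eIF5 and the many-subunit complex eIF3 take part in scanning for the start codon. The mRNA is brought in through its cap by eIF4E, its helicase eIF4A and the helper eIF4B, and proteins that bind eIF4E hold that step back. In elongation eEF1A delivers each aminoacyl-tRNA, eEF1B recharges eEF1A, and eEF2 moves the ribosome by a codon. Myc is known as an activator of genes for ribosome production and translation, and the retinoblastoma protein Rb holds back the E2F factors that drive cell division. Crypts of the small intestine hold its dividing cells, and villi carry the differentiated absorptive epithelium.

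Arrays were made from small intestine of mice aged 2 months, taken on day 5 after ablation of Rb (Rb KO) or of Rb and Myc together (DKO) by Ah-cre, an inducible Cre described as specific to the intestine. Control, Rb KO and DKO villi and crypts gave 6 groups of 5 arrays, 30 in all, and no group with loss of Myc alone was analysed. DKO against Rb KO therefore shows loss of Myc on top of loss of Rb, Rb KO against control shows loss of Rb, and DKO against control shows both. Whether the controls carried the Cre or received the inducer, and whether replicates were separate animals, is not given in the sources used here, so p-values measure the spread between these samples. Levels are log2 values of the deposited table, given as mean ± SD with n = 5 or array by array in the order of animals 1 to 5. Differences are log2 ± SE, and "past the threshold" means a two-sided limma p-value below 0.05 after Benjamini-Hochberg adjustment over all 14548 genes.

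Arrays of a group correlated at 0.987 to 0.997. The targeted genes followed the labels. Rb1 was lower in Rb KO than in control by 1.46 ± 0.16 in villi and by 1.68 ± 0.18 in crypts. Myc stood at 10.51 ± 0.23 in control crypts, with 10.48 ± 0.41 for Rb KO and 8.88 ± 0.13 for DKO, while in villi it was at 7.06 ± 0.60, 7.28 ± 0.21 and 6.76 ± 0.17 and did not pass the test (adjusted p = 0.147, limma, DKO against Rb KO). Crypt markers averaged 12.31 to 12.61 in the crypt groups and 8.93 to 9.65 in the villus groups, and markers of villus enterocytes 13.03 to 13.26 and 14.24 to 14.33. The tissues appear to have been normalized separately, so levels were not compared between them. Control villi differed in a crypt marker score, the mean of 9 crypt genes around the mean of the tissue. Animals 4 and 1 had the highest scores, 0.92 and 0.04, and animals 3, 5 and 2 were at -0.39, -1.20 and -1.33, with no clear gap below animal 1. Villus counts are given with and without control animals 1 and 4, which are also the 2 females among the controls. In these bulk samples, fewer cells of a type and less RNA per cell cannot be told apart.

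Translation factor genes were lower in DKO than in Rb KO crypts. In that comparison 17 of 58 passed the threshold as lower and 0 as higher, whereas 12.4% of all genes tested passed, 7.22% as lower and 5.17% as higher. At an unadjusted p below 0.05, 30 were lower and 2 higher, and the share of all genes at that limit was not computed. The median difference over the 58 genes was -0.13, beside 0.01 over all genes, and 51 of the 58 differences were negative. The arrays of the 2 groups did not overlap for 15 of the 17, and for 1311 of the 1802 genes that passed among all tested. As a share of genes tested, 25.9% of the 58 both passed and did not overlap, beside 9.01% of all genes. Leaving out any single array gave 14 to 19 genes, and leaving out Rb KO animals 4 and 5, which stood apart in clock genes, gave 16, beside 4.8% of all genes lower. A fit over all 30 arrays gave 8, beside 4.38% of all genes lower.

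DKO and control crypts differed in 23 of the 58 genes, with 21 lower and 2 higher, beside 9.19% and 11% of all genes, 20.2% together. The median difference was -0.12, against 0.01 over all genes. This comparison shares the DKO arrays with the former, so the 15 genes that passed as lower in both are not independent evidence. Loss of Rb alone in crypts changed 5 of 58, with 4 higher and 1 lower, beside 7.33% and 2.97% of all genes, 10.3% together, and the median difference was 0.02 against 0.00.

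**Figure D1:**
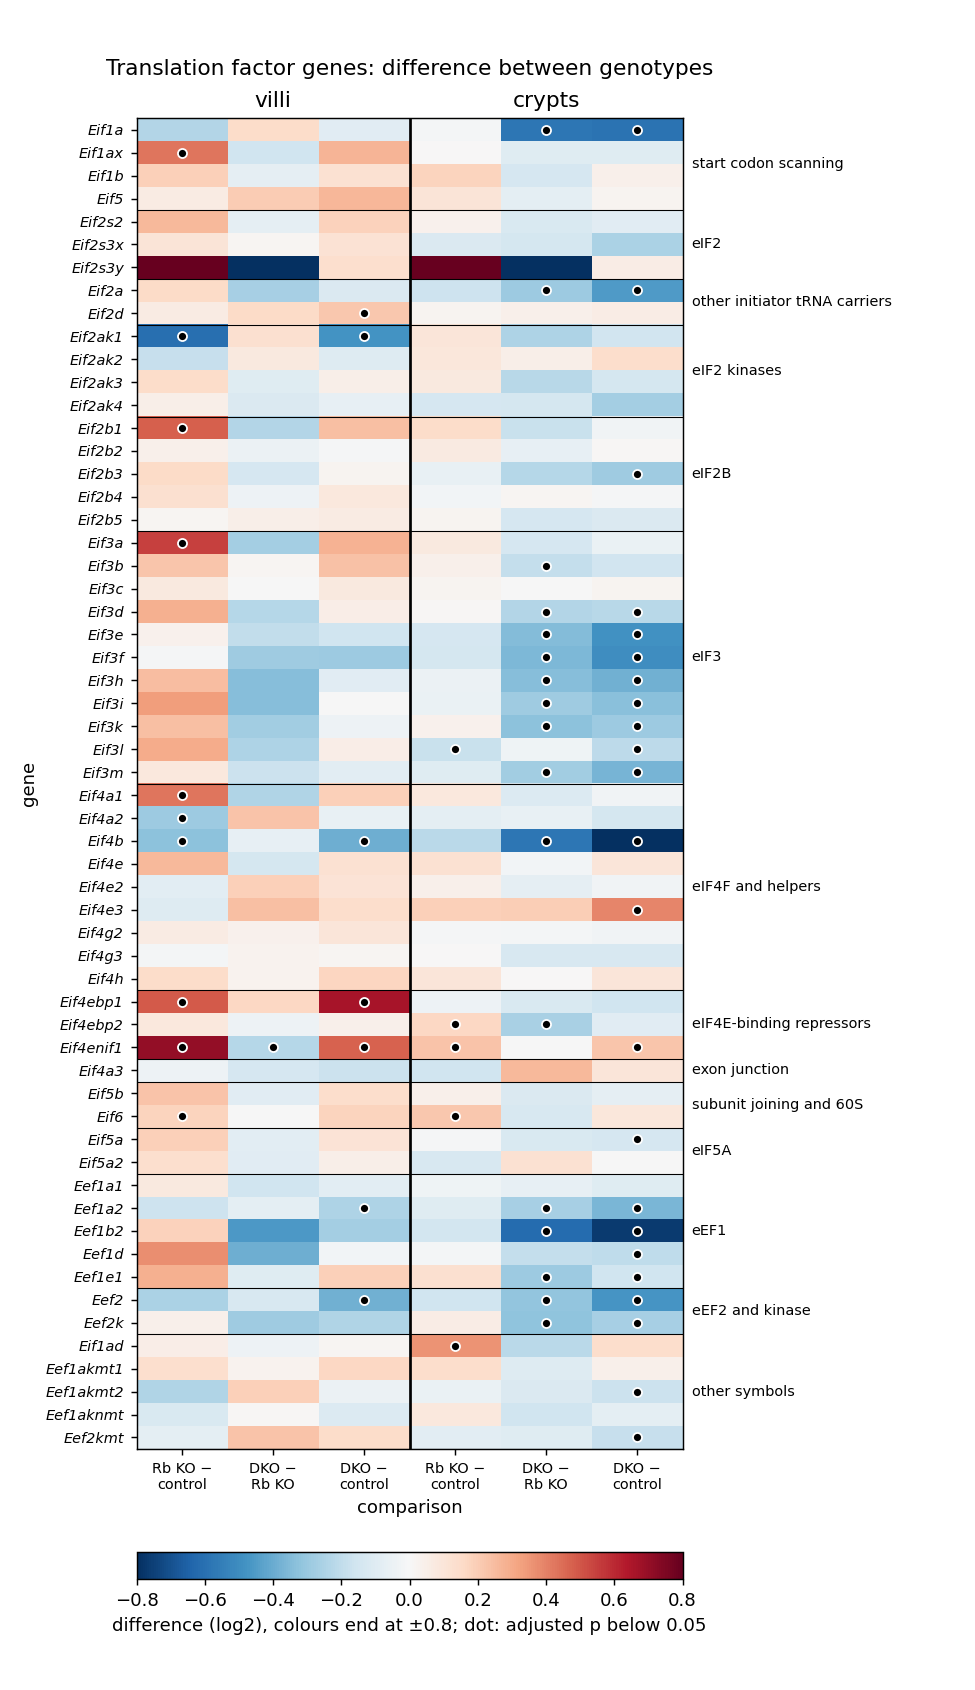
Difference in log2 level between genotypes for each of the 58 translation factor genes (rows, grouped by complex) in 3 comparisons in villi and 3 in crypts (columns). Colour gives the difference, with colours ending at ±0.8, and a black dot marks an adjusted p below 0.05; in crypts 17 dots stand in DKO against Rb KO and 23 in DKO against control. The dark cells of Eif2s3y, on the Y chromosome, follow the number of males in each group.

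Promoters were read for 47 of the 58 genes, from RefSeq's windows of 250 bases before to 50 after each annotated start (build GRCm38.p6). The motif CACGTG, the palindromic E-box to which Myc and its partner Max are known to bind, was looked for; it reads the same on both strands. It was present in a window of 12 of the 47 genes (25.5%), beside 11.0% of the 11609 tested genes with a window and 8.09% of all 27025 genes in the table. Of the 13 genes with a window that fell in DKO against Rb KO crypts, 4 held it (30.8%), and of the 34 others 8 did (23.5%). A match is a description of these letters, not of binding. The stretch from 75 to 16 bases before the start is shown for those 4 genes and, for comparison, for the 2 genes with a window that fell furthest, neither of which held the motif anywhere in its window; CACGTG is in capitals.
Eef2, chr10:81176556-81176615, plus strand: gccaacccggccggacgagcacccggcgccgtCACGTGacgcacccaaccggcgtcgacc
Eif3f, chr7:108934340-108934399, plus strand: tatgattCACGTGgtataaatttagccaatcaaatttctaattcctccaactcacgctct
Eif3k, chr7:28981904-28981963, minus strand: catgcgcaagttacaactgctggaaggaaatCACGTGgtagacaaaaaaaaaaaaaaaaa
Eef2k, chr7:120842756-120842815, plus strand: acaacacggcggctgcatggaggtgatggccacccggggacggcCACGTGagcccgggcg
Eef1b2, chr1:63176756-63176815, plus strand: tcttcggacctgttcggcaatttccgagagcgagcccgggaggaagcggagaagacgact
Eif4b, chr15:102073698-102073757, plus strand: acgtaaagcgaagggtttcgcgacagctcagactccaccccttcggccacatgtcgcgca
The motif began 43 bases before the start in Eef2, 68 in Eif3f, 44 in Eif3k and 31 in Eef2k, where it lay in the first of 3 windows.

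Among the factors of start codon scanning, Eif1a, which encodes an eIF1A protein, fell in DKO crypts. Its level was 10.27, 10.32, 10.33, 10.43 and 10.40 in control crypts and 10.45, 10.31, 10.39, 10.24 and 10.26 in Rb KO crypts. DKO crypts gave 9.78, 9.65, 9.71, 9.87 and 9.78. Every DKO array lay below every control and Rb KO array, and the latter groups overlapped. The difference was -0.58 ± 0.06 against Rb KO (adjusted p = 1.45e-05, limma) and -0.59 ± 0.06 against control (adjusted p = 3.41e-06, limma). Its X-linked relative Eif1ax differed by -0.10 and -0.10 and did not pass the test, and nor did Eif1b, at -0.14 and 0.04, or Eif5, the activator of eIF2's GTPase, at -0.08 and 0.02.

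eIF3, the scaffold that holds the other factors on the small subunit, was the complex with the most called members and also the one with the most members. In DKO against Rb KO crypts 8 of its 11 measured subunits fell and 0 rose, beside 7.22% and 5.17% of all genes. The median of the 11 was -0.28. Eif3f stood at 13.67, 13.53, 13.64, 13.67 and 13.59 in control crypts, with 13.47, 13.58, 13.50, 13.47 and 13.38 for Rb KO and 13.02, 13.15, 13.16, 13.22 and 13.07 for DKO. The DKO arrays lay wholly below both other groups. Eif3f fell by 0.36 ± 0.05 against Rb KO (adjusted p = 4.03e-04, limma) and by 0.50 ± 0.05 against control (adjusted p = 8.47e-06, limma). Eif3e fell by 0.35, Eif3h by 0.34, Eif3k by 0.33, Eif3i and Eif3m by 0.28 each, Eif3d by 0.23 and Eif3b by 0.19. With all 30 arrays in the fit the calls of 7 of the 8 subunits, all but Eif3k, were lost (adjusted p 0.0557 to 0.266, limma). The other subunits differed by -0.13 (Eif3a), -0.03 (Eif3l) and -0.01 (Eif3c) and did not pass.

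Against control crypts, where 9.19% of all genes passed as lower, 8 subunits fell as well, with a median of -0.29. Of these 7 also fell against Rb KO, and the eighth was Eif3l, at -0.21, in place of Eif3b. The calls of Eif3b and Eif3d against Rb KO are the least firm. That of Eif3b was lost without Rb KO 1, 2, 3 or 4 or DKO 1, 2 or 4 (adjusted p up to 0.104, limma), and that of Eif3d without Rb KO 1, 3 or 4 or DKO 1 or 2 (up to 0.0674, limma). Against control, Eif3d was lost without control 1 or DKO 1 or 2 (up to 0.0586, limma). With the mean of its probe sets Eif3d passed in neither comparison. It was then at -0.11 against Rb KO (adjusted p = 0.217, limma) and -0.13 against control (adjusted p = 0.110, limma). Loss of Rb alone in crypts lowered 1 subunit, Eif3l, by 0.18 ± 0.05, from 12.73, 12.70, 12.83, 12.79 and 12.85 to 12.56, 12.67, 12.56, 12.70 and 12.52. Its groups meet at the edge, with control 2 and Rb KO 4 at 12.70 each. The call was lost without any of control 3, 4 or 5 or Rb KO 1, 3 or 5 (adjusted p up to 0.0929, limma). With the mean of its probe sets Eif3l passed neither here (-0.12, adjusted p = 0.114, limma) nor in DKO against control (-0.12, adjusted p = 0.0789, limma).

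**Figure D2:**
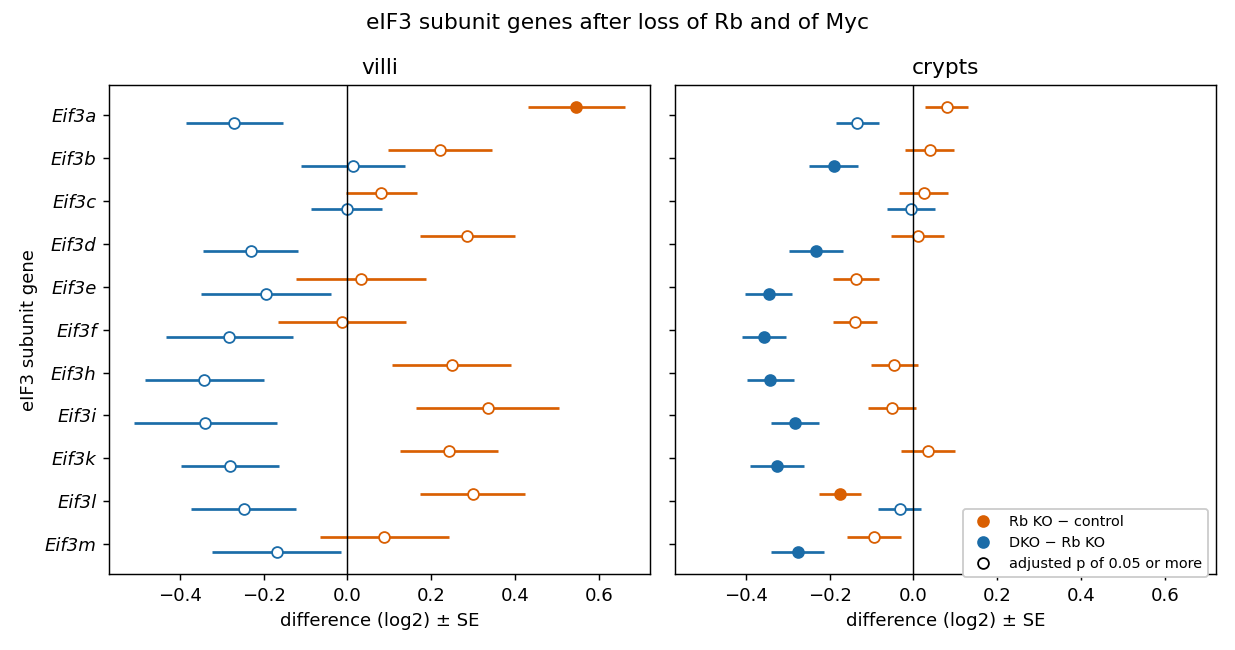
Difference in log2 level ± SE for the 11 eIF3 subunit genes in villi (left) and crypts (right), for loss of Rb (orange) and for loss of Myc on top of it (blue). Filled points passed the threshold; in crypts 8 blue points are filled, all below 0, and in villi 1 orange point, Eif3a, is.

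Among the factors that recruit the mRNA, Eif4b, the helper of the helicase eIF4A, showed the largest fall against control crypts of the 58 genes. Its levels were 12.74, 12.63, 12.73, 12.74 and 12.47 in control and 12.47, 12.66, 12.49, 12.34 and 12.27 in Rb KO crypts. In DKO crypts they were 11.75, 11.95, 11.92, 11.84 and 11.86. All DKO arrays were below all others, while the control and Rb KO arrays overlapped. Eif4b fell by 0.58 ± 0.07 against Rb KO (adjusted p = 1.20e-04, limma) and by 0.80 ± 0.07 against control (adjusted p = 3.07e-06, limma), and its 3 measured probe sets passed in both comparisons. Eif4e3, a cap-binding relative of eIF4E, rose by 0.39 ± 0.09 in DKO against control crypts. The other members did not pass in any comparison of crypts; against Rb KO they differed by -0.11 for the helicase Eif4a1, -0.06 for its paralogue Eif4a2 and -0.02 for the cap-binding Eif4e.

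Of the 3 genes for proteins that hold eIF4E back, 1 passed in DKO against Rb KO crypts, beside 12.4% of all genes, and all 3 differences were negative. Eif4ebp2 fell by 0.26 ± 0.05 in DKO against Rb KO crypts (adjusted p = 0.00339, limma), with 3 of its 5 measured probe sets in that direction, and the probe set of largest variance did not pass (adjusted p = 0.131, limma). It had risen by 0.17 in Rb KO against control, a call lost without any control array or Rb KO 1, 2 or 3 (adjusted p up to 0.118, limma) and reversed in sign, without passing, when its probe sets were averaged (-0.03). Eif4enif1, which carries eIF4E into the nucleus and represses bound mRNAs, was higher in Rb KO than in control crypts by 0.23 ± 0.05 and in DKO than in control by 0.22 ± 0.05. Its control crypts were at 9.75, 9.56, 9.60, 9.62 and 9.54, Rb KO at 9.79, 9.83, 9.81, 9.98 and 9.78, and DKO at 9.78, 9.88, 9.80, 9.81 and 9.89. The control arrays were the lowest, and the mutant groups overlapped, with means of 9.84 and 9.83. Without Rb KO animals 4 and 5 the call in Rb KO crypts was lost (0.20, adjusted p = 0.0601, limma). Eif4ebp1 did not pass in crypts, at 9.89, 9.70, 10.11, 10.05 and 9.93 in control, with 9.98, 9.86, 9.85, 9.94 and 9.86 for Rb KO and 9.54, 9.81, 9.95, 9.89 and 9.69 for DKO.

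Eif2a, which can carry initiator tRNA outside eIF2, fell by 0.29 ± 0.07 against Rb KO crypts (adjusted p = 0.0146, limma) and by 0.45 ± 0.07 against control. DKO crypts lay between 9.27 and 9.59, Rb KO between 9.63 and 9.77 and control between 9.73 and 10.00. Its groups did not overlap between DKO and either other genotype. Of the other groups that serve eIF2, 0 of the 3 eIF2 subunits, 0 of the 4 eIF2 kinases and 0 of the 5 eIF2B subunits passed in DKO against Rb KO crypts, beside 12.4% of all genes. In groups this small, 0 calls do not set them apart. Their medians were -0.14, -0.18 and -0.13, beside -0.13 over the 58 genes. Eif2b3, a subunit of the exchange factor eIF2B, fell by 0.28 ± 0.08 against control.

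In elongation, Eef1b2, the exchange subunit that recharges eEF1A, showed the largest called fall against Rb KO crypts of the 58 genes. Control crypts were at 13.78, 13.80, 13.91, 14.03 and 13.84 and Rb KO crypts at 13.78, 13.78, 13.72, 13.62 and 13.72. DKO crypts were at 13.08, 12.95, 13.05, 13.25 and 13.20. The DKO arrays stood apart below the others. The fall was 0.62 ± 0.06 against Rb KO (adjusted p = 2.50e-05, limma) and 0.77 ± 0.06 against control (adjusted p = 1.61e-06, limma). Eef1e1, a small protein of the multi-tRNA synthetase complex, fell by 0.29 against Rb KO, and Eef1a2, a paralogue of eEF1A, by 0.26. Against control, Eef1a2 fell by 0.36, Eef1d, another exchange subunit, by 0.21 and Eef1e1 by 0.16. The last of these was called by a narrow margin (adjusted p = 0.0493, limma) and was lost without control 1, 3, 4 or 5 or DKO 1, 2, 4 or 5 (up to 0.108). That of Eef1d was lost without control 1 or 3 or DKO 1 or 2 (up to 0.0820).

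Eef1a1, the main carrier of aminoacyl-tRNA, differed little between the groups. It was at 14.97 to 15.04 in control crypts, with 14.96, 15.01, 14.97, 14.97 and 14.99 for Rb KO and 14.91, 14.88, 14.93, 14.93 and 14.92 for DKO. The DKO arrays were the lowest, but the difference of -0.06 from Rb KO did not pass the test. The deposited values reach 15.21 at most, so these levels are near the top of the scale, and how far the scale compresses differences there was not tested.

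Eef2, the translocase, was at 14.10, 14.04, 14.04, 14.09 and 13.91 in control crypts, with 13.95, 14.04, 13.88, 13.78 and 13.76 for Rb KO and 13.41, 13.54, 13.54, 13.65 and 13.68 for DKO. DKO did not overlap with either group. It fell by 0.32 ± 0.07 against Rb KO (adjusted p = 0.00493, limma; 0.0577 with the mean of its probe sets) and by 0.47 ± 0.07 against control (adjusted p = 9.78e-05, limma). Eef2k, the kinase that inhibits eEF2, fell by 0.32 ± 0.08 and 0.26 ± 0.08. The former call was lost without Rb KO 1 or 4 or DKO 1 (adjusted p up to 0.0581, limma), and the latter without control 1, 2, 4 or 5 or DKO 1, 2 or 3 (up to 0.0908).

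**Figure D3:**
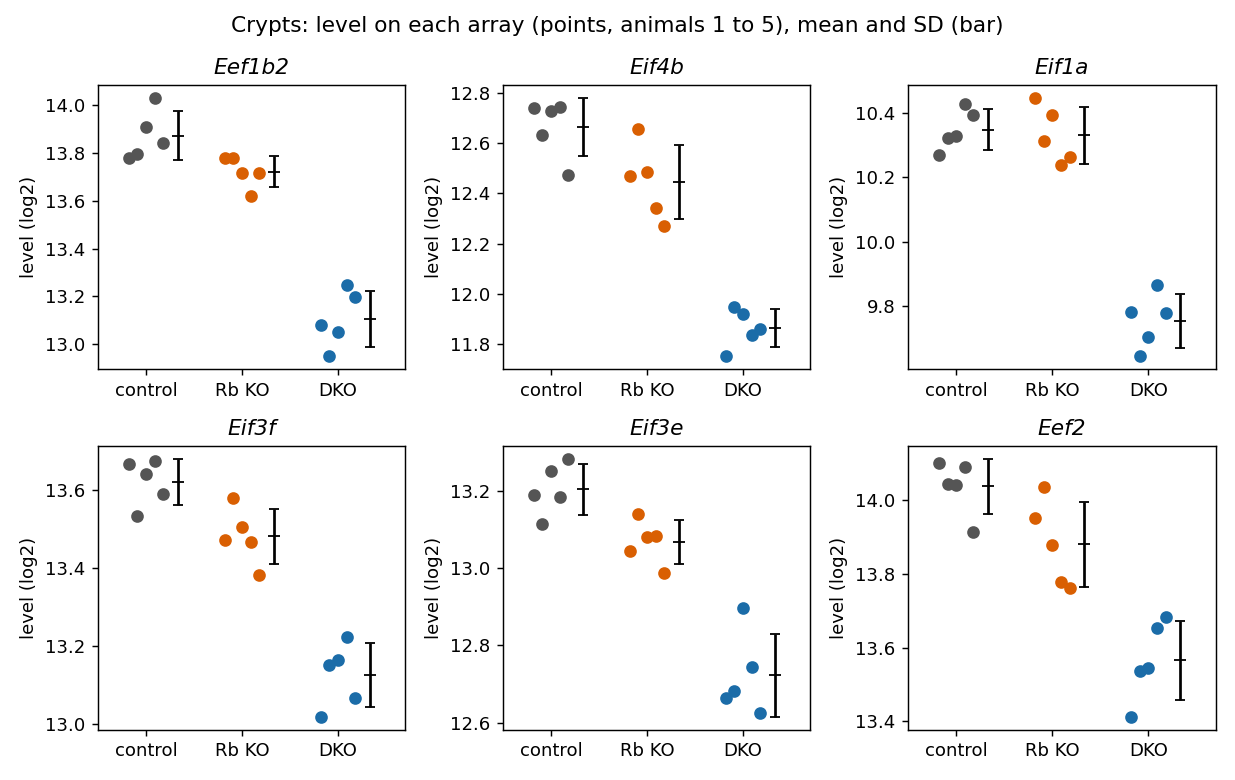
Log2 level of 6 translation factor genes on each of the 15 crypt arrays, with points for animals 1 to 5 of each genotype and a bar for the mean and SD. For all 6 genes the 5 DKO arrays lie below the 5 control and the 5 Rb KO arrays. The 6 were picked from the genes that passed as lower in both comparisons with DKO, so their separation is not a further result.

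Markers of other cells were read beside these falls. In DKO against Rb KO crypts 3 of 9 crypt markers passed as higher and 0 as lower, and 0 of 7 measured enterocyte markers passed. There 1 of 8 T cell markers was higher and 1 of 4 measured markers of exocrine pancreas was higher. Of all genes tested 5.17% passed as higher and 7.22% as lower. The summed log2 level of the crypt markers was 111.7 to 115.0 in DKO crypts, beside 108.9 to 112.5 for Rb KO and 111.0 to 114.8 for control. That of the T cell markers was 61.6 to 65.5, 58.2 to 64.9 and 57.9 to 62.1 in the same order of groups, and that of the pancreas markers 35.6 to 49.2, 35.7 to 41.7 and 35.6 to 43.8. No marker of these lists was below the limit on low values. With the crypt marker score in the fit 19 of the 58 genes were lower, beside 6.28% of all genes, and with the gap between 3′ and 5′ GAPDH probe sets, a sign of RNA quality, 14 were, beside 5.24%.

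Of the remaining genes in crypts, Eif6, which keeps free large subunits from joining, rose by 0.22 ± 0.06 in Rb KO against control, from 12.69, 12.53, 12.54, 12.34 and 12.53 to 12.83, 12.72, 12.75, 12.80 and 12.64, and was at 12.56, 12.63, 12.70, 12.59 and 12.61 in DKO. Control 1 overlapped the Rb KO arrays. The call was lost without control 2, 3 or 4 or Rb KO 1, 3 or 4 (adjusted p up to 0.0758, limma), and the probe set of largest variance gave -0.05. Eif1ad, a gene named for an eIF1A-like domain, rose by 0.36 ± 0.07 in Rb KO against control (adjusted p = 0.00429, limma), a call that the probe set of largest variance did not give (0.20, adjusted p = 0.0922, limma). It stood at 10.76, 10.80, 10.92, 10.53 and 10.64 in control crypts, with 11.08, 10.95, 11.07, 11.22 and 11.13 for Rb KO and 10.78, 10.92, 11.00, 10.83 and 10.82 for DKO, with Rb KO wholly above control.

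Eef2kmt, a lysine methyltransferase of eEF2, was at 7.19, 7.29, 7.19, 7.47 and 7.21 in control crypts, with 7.18 to 7.19 for Rb KO and 7.12, 7.08, 7.02, 7.05 and 7.17 for DKO. It fell by 0.18 in DKO against control, lost without control 2 or 4 or DKO 2, 3 or 4 (adjusted p up to 0.0638, limma). Eef1akmt2, a methyltransferase of eEF1A, fell by 0.17 and Eif5a, the hypusine-bearing factor, by 0.13 in the same comparison. Eef1akmt2 was lost without control 4 or DKO 1 (up to 0.0621), and Eif5a without control 2, 3, 4 or 5 or DKO 1, 2 or 3 (up to 0.121).

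In villi, loss of Rb raised 7 of the 58 genes and lowered 3, beside 14.7% and 15.8% of all genes tested, 30.5% together. The median difference was 0.12, against -0.02 over all genes, and 43 of the 58 were positive. Leaving out 1 array gave 7 to 14. Without control animals 1 and 4 there were 20, of which 17 were higher, beside 34.2% of all genes, 17% as higher. Without Rb KO animals 4 and 5 there were 5, of which 2 were higher, beside 25% and 12.1%. All 30 arrays in the fit gave 21, beside 35.6%. The gap between 3′ and 5′ GAPDH probe sets was -0.21 to -0.11 in control villi and -0.09 to 0.01 in Rb KO villi, without overlap. With that gap in the fit there were 13 genes, of which 10 were higher, beside 22.8% and 12.3% of all genes. The median difference of the 58 genes was then 0.25. The part of RNA quality in these villus results was not tested.

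Eif4enif1 had the largest called difference. It was at 9.13, 9.07, 9.15, 9.14 and 9.09 in control villi, with 9.83, 9.86, 9.78, 9.86 and 9.75 for Rb KO and 9.51, 9.70, 9.58, 9.56 and 9.62 for DKO. The 3 groups did not overlap, with DKO between the others. Rb KO stood 0.70 ± 0.05 above control (adjusted p = 8.10e-08, limma), DKO 0.23 ± 0.05 below Rb KO (adjusted p = 0.0155, limma) and 0.47 ± 0.05 above control (adjusted p = 8.20e-06, limma). These comparisons share their arrays in pairs.

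Eif2ak1, the kinase of eIF2 that responds to heme, fell. Its villus levels were 9.65, 9.87, 9.64, 9.55 and 9.48 in control, with 9.05, 9.03, 9.22, 8.71 and 9.15 for Rb KO and 8.99, 9.32, 9.30, 9.18 and 9.01 for DKO. All control arrays were above all mutant arrays, and the mutant groups overlapped. The difference was -0.60 ± 0.10 in Rb KO (adjusted p = 3.27e-04, limma) and -0.48 ± 0.10 in DKO (adjusted p = 0.00388, limma) against control. The DKO call depends on the probe set: the mean of its probe sets gave -0.18 (adjusted p = 0.103, limma) and the probe set of largest variance 0.17 (adjusted p = 0.490, limma). In crypts it did not pass, at 9.46, 9.34, 9.27, 8.98 and 9.11 in control, with 9.37, 9.39, 9.32, 9.29 and 9.25 for Rb KO and 8.97, 9.23, 8.98, 9.13 and 9.07 for DKO.

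Eif3a, the largest eIF3 subunit, rose by 0.55 ± 0.12 in Rb KO villi (adjusted p = 0.00203, limma). It was at 11.24, 10.62, 10.88, 11.27 and 10.75 in control villi, with 11.50, 11.39, 11.36, 11.67 and 11.58 for Rb KO and 11.21, 11.09, 11.20, 11.25 and 11.39 for DKO. Rb KO lay above control without overlap, and its 4 measured probe sets all passed. Without control animals 1 and 4, the highest controls, the difference was 0.75, and without Rb KO 4 and 5 it was 0.46, both past the threshold. It was 1 of 11 subunits called, beside 30.5% of all genes. Of the 11 differences 10 were positive, with a median of 0.24. In DKO against Rb KO villi 10 of 11 were negative, with a median of -0.25, and 0 passed. Eif3f, for example, was at 12.05, 11.55, 11.73, 12.45 and 11.62 in control villi, with 11.94, 11.82, 11.60, 11.86 and 12.11 for Rb KO and 11.41, 11.42, 11.53, 11.74 and 11.84 for DKO, with all groups overlapping.

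The eIF3 genes of control villi followed the crypt markers from array to array. Their mean level was 10.95, 10.45, 10.70, 11.19 and 10.62 in control villi 1 to 5, where the crypt marker score was 0.04, -1.33, -0.39, 0.92 and -1.20. The order of the arrays is the same in both. In crypts the score ranged from -0.38 to 0.30 over the 15 arrays, and the mean level of the eIF3 genes was 12.12 to 12.30 in DKO against 12.34 to 12.50 in Rb KO and 12.41 to 12.55 in control. With the score as a covariate, DKO against Rb KO villi had 17 of the 58 genes lower and 1 higher, beside 7.64% and 9.88% of all genes (17.5% together). The fit without the score had 1 lower and 0 higher beside 1.92% and 5.9% of all genes, 7.83% together.

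**Figure D4:**
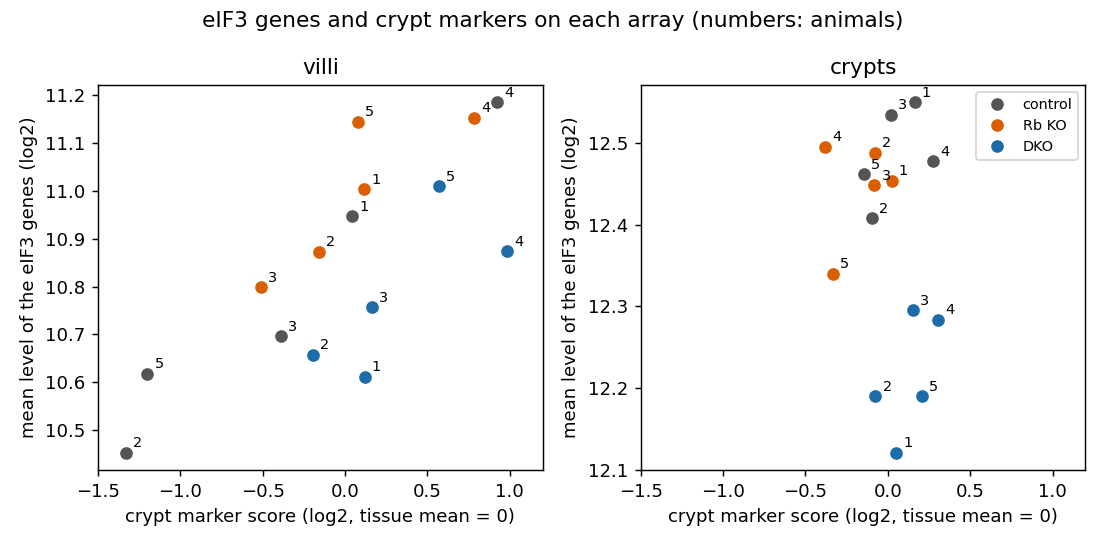
Mean log2 level of the 11 eIF3 genes against the crypt marker score (log2, mean of the tissue at 0) on each villus array (left) and crypt array (right), coloured by genotype and numbered by animal; the level axes differ. Villus arrays spread from -1.33 to 0.99 in the score and crypt arrays from -0.38 to 0.30, and all 5 DKO crypt arrays lie below the other crypt arrays.

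Of the genes that recruit the mRNA, the helicase Eif4a1 rose by 0.43 ± 0.11 in Rb KO villi (adjusted p = 0.00722, limma) and its paralogue Eif4a2 fell by 0.29 ± 0.07 (adjusted p = 0.00445, limma). The call of Eif4a1 was lost without Rb KO animals 4 and 5 (0.30, adjusted p = 0.0726, limma) and with the probe set of largest variance (0.32, adjusted p = 0.0505, limma). Eif4a2 was at 12.19, 12.34, 12.33, 12.24 and 12.11 in control villi, with 12.05, 12.09, 11.91, 11.94 and 11.77 for Rb KO and 12.25, 12.25, 12.19, 12.13 and 12.09 for DKO. Rb KO lay below control without overlap, and DKO lay within the control range except for 1 array. Against Rb KO, DKO villi were higher in Eif4a2 by 0.23 (adjusted p = 0.0515, limma), which passed only without Rb KO 2 among the arrays left out in turn. Of 15 other ways of processing, it passed in 9, among them the mean of its probe sets. In 6 it did not, among them without Rb KO animals 4 and 5 (0.17, adjusted p = 0.209, limma). Eif4e2, a cap-binding relative of eIF4E, was next in order of p there, with 10.54, 10.62, 10.63, 10.73 and 10.71 in control villi, with 10.62, 10.40, 10.47, 10.70 and 10.62 for Rb KO and 10.76, 10.64, 10.70, 10.79 and 10.87 for DKO; the Rb KO and DKO arrays overlapped and the difference of 0.19 did not pass. Eef2kmt, next in that order, was at 6.37, 6.31, 6.08, 6.64 and 6.34 in control villi, with 6.13, 6.34, 6.28, 6.30 and 6.31 for Rb KO and 6.39, 6.58, 6.46, 6.52 and 6.54 for DKO, with DKO above Rb KO on every array but without passing (adjusted p = 0.113, limma).

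Eif4b fell in villi too, by 0.33 ± 0.11 in Rb KO and by 0.39 ± 0.11 in DKO against control. It was at 11.32, 11.16, 11.17, 11.67 and 11.02 in control villi, with 10.82, 10.97, 10.93, 10.84 and 11.14 for Rb KO and 10.67, 10.88, 10.88, 11.05 and 10.91 for DKO. The groups overlapped slightly at control 5. The first call was lost without control 1 or 4 or Rb KO 1, 3 or 4 (adjusted p up to 0.0730, limma) and the second without DKO 1 (0.0503). Without control animals 1 and 4 together the differences were -0.18 and -0.24, and neither passed. With the GAPDH difference in the fit they were -0.04 and -0.25, again without passing, and with the clock index neither passed (adjusted p = 0.0517 and 0.210, limma). The clock index is the mean of 4 clock genes minus that of 5 others, each around the mean of the tissue.

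Eif4ebp1, the repressor of eIF4E that mTORC1 inactivates, rose by 0.49 ± 0.16 in Rb KO villi (adjusted p = 0.0260, limma) and by 0.66 ± 0.16 in DKO villi (adjusted p = 0.00867, limma) against control. Its levels were 8.54, 8.01, 8.86, 8.80 and 8.19 in control villi, with 9.00, 8.80, 8.99, 9.13 and 8.95 for Rb KO and 9.02, 9.49, 9.35, 8.97 and 8.88 for DKO. DKO lay above every control array, and Rb KO overlapped the upper controls. The call in Rb KO was lost without control 2 or 5 or Rb KO 4 (up to 0.0729) and without Rb KO animals 4 and 5 together (0.45, adjusted p = 0.107, limma). It was lost too with the crypt marker score in the fit (0.41, adjusted p = 0.0536, limma). The call in DKO was lost with the clock index in the fit (0.62, adjusted p = 0.0595, limma).

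**Figure D5:**
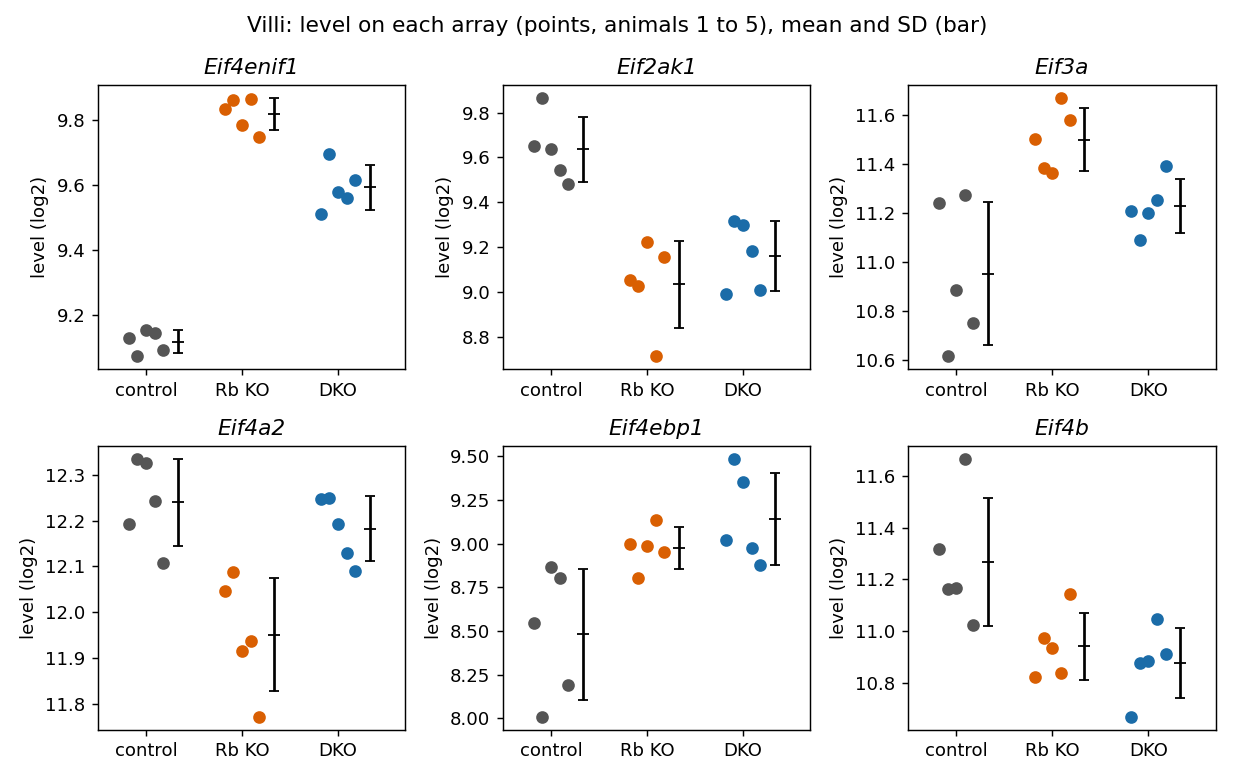
Log2 level of 6 translation factor genes on each of the 15 villus arrays, with points for animals 1 to 5 of each genotype and a bar for the mean and SD. Eif4enif1 separates the 3 genotypes, Eif2ak1 separates control from both mutants, and for Eif4b the groups overlap.

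Other genes that passed in Rb KO villi were Eif2b1, a regulatory subunit of eIF2B, at 0.48 ± 0.14, Eif1ax at 0.43 ± 0.15 and Eif6 at 0.18 ± 0.06, all higher. Eif6 was at 12.20, 12.06, 12.18, 12.00 and 12.19 in control villi, with 12.24, 12.24, 12.45, 12.32 and 12.27 for Rb KO and 12.20, 12.32, 12.35, 12.28 and 12.34 for DKO. Rb KO lay above control, but the mean of its probe sets gave -0.01 and the probe set of largest variance -0.20, so the direction depends on the probe set. The call of Eif6 was lost without control 2 or 4 or Rb KO 3 or 4 (adjusted p up to 0.0889, limma). Eif1ax was lost without control 2, 3 or 5 or Rb KO 1, 4 or 5 (up to 0.118). It also depends on the probe set: the mean of its probe sets gave 0.21 (adjusted p = 0.347, limma) and the probe set of largest variance 0.21 (adjusted p = 0.480, limma). Without Rb KO animals 4 and 5 together Eif2b1 was at 0.30 (adjusted p = 0.128, limma) and Eif1ax at 0.27 (adjusted p = 0.267, limma).

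In DKO against control villi 3 genes were higher and 4 lower, beside 11.3% and 5.78% of all genes, 17.1% together, and without control animals 1 and 4 there were 5 and 1, beside 12.3% and 6.34%. Besides Eif4enif1, Eif4ebp1, Eif2ak1 and Eif4b, Eef2 fell by 0.38 ± 0.10, Eef1a2 fell by 0.25 and Eif2d, an initiator tRNA carrier, rose by 0.21. Eef2 was at 13.20, 12.92, 12.88, 13.25 and 12.76 in control villi, with 12.66, 12.86, 12.69, 12.70 and 12.82 for Rb KO and 12.39, 12.55, 12.68, 12.76 and 12.72 for DKO. DKO lay below control, with its highest array and the lowest control both near 12.76. Without control animals 1 and 4 Eef2 differed by -0.23 (adjusted p = 0.0821, limma), and it did not pass with the mean of its probe sets, the clock index or the GAPDH difference either (adjusted p 0.0695 to 0.129, limma). Eef1a2 and Eif2d did not pass without those animals either (adjusted p = 0.150 and 0.128, limma). The clock index was -1.37 to -0.11 in control villi and 0.05 to 2.20 in DKO villi, without overlap. With the index in the fit Eef1a2 and Eif2d were lost too (adjusted p = 0.172 and 0.0501, limma), as were Eif4b and Eif4ebp1. The part of the clock genes in these results was not tested. Eef1a2 was lost without control 1 or 4 or DKO 2 (adjusted p up to 0.0748, limma) and Eif2d without any of control 1, 2, 3 or 4 or DKO 2, 4 or 5 (up to 0.111).

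Eef1b2, which fell in crypts, was at 11.98, 11.07, 11.57, 12.42 and 11.42 in control villi, with 11.98, 11.76, 11.63, 12.04 and 11.98 for Rb KO and 11.35, 11.29, 11.32, 11.50 and 11.64 for DKO. Control villi spread widely, the highest DKO array overlapped the lowest Rb KO array, and its villus differences did not pass. Eef1a1 was at 14.48, 14.23, 14.33, 14.62 and 14.28 in control villi, with 14.44, 14.46, 14.35, 14.52 and 14.54 for Rb KO and 14.19, 14.20, 14.32, 14.40 and 14.42 for DKO, with all groups overlapping. T cell markers moved in villi: 6 of 8 passed as lower in Rb KO than in control, beside 15.8% of all genes. The summed level of these markers was 83.7 to 88.5 in control, with 78.9 to 84.4 for Rb KO and 85.5 to 87.9 for DKO. Their part in the villus results was not tested.

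Whether an effect differed between the tissues was tested directly. For loss of Rb 4 of 58 genes differed, beside 13.7% of all genes, and with the animal as a block 10 did, beside 20.5%. Eif4enif1 rose by 0.47 ± 0.07 more in villi than in crypts (adjusted p = 1.83e-05, limma). Eif2ak1 differed by -0.70 ± 0.13 (adjusted p = 5.87e-04, limma), Eif3a by 0.47 ± 0.13 (adjusted p = 0.0151, limma) and Eif3l by 0.47 ± 0.14 (adjusted p = 0.0212, limma). The villus levels of Eif3l were 11.10, 10.73, 11.03, 11.48 and 10.92 in control, with 11.35, 11.25, 11.15, 11.47 and 11.55 for Rb KO and 10.90, 10.97, 11.05, 11.27 and 11.32 for DKO, all overlapping. Eif3a was lost without Rb KO 5 (adjusted p up to 0.0547, limma), and Eif3l without control 3 or 5 or Rb KO 5 (up to 0.0754). Eif3l was also lost with the mean of its probe sets (0.26, adjusted p = 0.0526, limma). The count was 12 without control 4 and 2 without Rb KO 5, 13 without control animals 1 and 4 (16.3% of all genes), and 2 without Rb KO animals 4 and 5 (7.35%), where Eif3a and Eif3l were lost (adjusted p = 0.190 and 0.162, limma). The 6 further genes called with the animal as a block were Eif4ebp1, Eif5a2, Eif4a1, Eif1ax and Eif2a, each higher by 0.27 to 0.53 in villi minus crypts, and Eif1ad at -0.30 (adjusted p 0.0142 to 0.0458, limma).

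For loss of Myc on top of Rb 2 of 58 genes differed between the tissues, beside 3.4% of all genes, and with the animal as a block 8 did, beside 9.93%. Eif1a differed by 0.72 ± 0.13 (adjusted p = 0.00325, limma). Its villus levels were 9.11, 8.98, 9.10, 9.11 and 9.45 in control, with 9.21, 8.68, 8.99, 9.07 and 8.61 for Rb KO and 9.25, 9.00, 8.97, 8.95 and 9.13 for DKO, so its fall was measured in crypts while villi overlapped. Eif4b differed by 0.52 ± 0.13 (adjusted p = 0.0303, limma), a call lost without Rb KO 1, 2, 3 or 4 or DKO 3, 4 or 5 (up to 0.0781), and with the mean of its probe sets or quantile normalization (0.0610 and 0.0519). The 6 further genes called with the animal as a block were Eif2ak1, Eef2kmt, Eif4a2 and Eif4e2, at 0.26 to 0.37, and Eif4enif1 and Eif4a3, at -0.22 and -0.39 (adjusted p 0.0160 to 0.0451, limma). No eIF3 subunit differed with either fit, nor did any eEF1 gene, Eef2 or Eef2k. A difference between villi and crypts in the effect of Myc loss on those genes was thus not detected. In crypts 8 eIF3 genes and 5 of the eEF1 and eEF2 groups passed as lower in DKO against Rb KO, beside 7.22% of all genes. In villi 0 did, beside 1.92%. The eIF3 medians were -0.28 in crypts and -0.25 in villi. Passing in crypts but not in villi is not itself a test of a difference.

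The 3 measured eIF2 subunit genes did not pass in any comparison, and 2 of them are sex-linked. Eif2s3x and Eif2s3y encode the eIF2 gamma subunit from the X and the Y chromosome. Control 1 and 4, Rb KO 3 and DKO 4 and 5 had Eif2s3y at 2.71 to 3.70 and high Xist, and so were read as female. In the 10 other animals Eif2s3y was at 8.78 to 9.53. Eif2s3x was 10.95 ± 0.12 in 5 female and 10.26 ± 0.20 in 10 male villi, and 12.28 ± 0.17 and 11.81 ± 0.12 in crypts, without overlap within a tissue. By group, Eif2s3x was at 10.86, 9.90, 10.10, 11.11 and 10.13 in control villi, with 10.39, 10.33, 10.80, 10.51 and 10.57 for Rb KO and 10.21, 10.21, 10.25, 11.00 and 11.00 for DKO. In crypts it was at 12.30, 11.85, 11.91, 12.52 and 11.88, at 11.84, 11.95, 12.34, 11.90 and 11.87, and at 11.66, 11.69, 11.59, 12.09 and 12.17. Within the males DKO crypts were the lowest. Eif2s3y differed by 1.33 and -1.19 in villi and 1.24 and -1.18 in crypts (Rb KO against control, DKO against Rb KO), which follows the number of females, 2, 1 and 2 of 5, and did not pass.

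In all, 35 of the 58 genes passed in at least 1 of the 6 comparisons and 23 in none. The share of all genes that passed in at least 1 was not computed, so the 35 cannot be set against it. The latter included Eef1a1, Eif4e, Eif4h and the large scaffolds Eif4g2 and Eif4g3, the GTPase activator Eif5, the subunit joining factor Eif5b, the eIF3 subunit Eif3c and 3 of the 4 eIF2 kinases. Genes that serve these factors were read from 6 further lists with 53 measured genes of 55. In DKO against Rb KO crypts 11 of 53 fell and 0 rose, beside 7.22% and 5.17% of all genes, with a median of -0.09. In DKO against control crypts 13 fell and 4 rose, beside 9.19% and 11%. In Rb KO against control villi 4 fell and 10 rose, beside 15.8% and 14.7% (30.5% together). In DKO against Rb KO villi 0 passed, beside 7.83%.

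Of 9 poly(A) binding and scanning helpers, 4 fell in DKO against Rb KO crypts. Pabpc4, a cytoplasmic poly(A)-binding protein, fell by 0.49 (adjusted p = 3.33e-04, limma), Pdcd4, an inhibitor of eIF4A, by 0.30 and Pabpc1, the main poly(A)-binding protein, by 0.23. Of 9 enzymes that modify eIF5A and eEF2, 2 fell, both in the pathway that makes diphthamide on eEF2: Dph5 by 0.46 (adjusted p = 2.78e-04, limma) and Dph2 by 0.38 (adjusted p = 8.50e-04, limma). Of 6 release and recycling factors, 2 fell, among them Abce1, which splits ribosomes, by 0.20. Of 8 measured mitochondrial translation factors, 2 fell, Mtrf1l by 0.26 and Tufm, the mitochondrial elongation factor Tu, by 0.21. In the integrated stress response list 1 of 10 fell, Nck1 by 0.22, and of 11 measured kinases and mTORC1 genes 0 passed.

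After loss of Rb in villi, where 14.7% of all genes rose, 4 of the 10 stress response genes did: Ddit3 by 0.57, Atf4, a transcription factor of the response, by 0.42, Nck1 by 0.27 and Gcn1 by 0.26. Among the helpers Paip2b rose by 0.81, Larp1 by 0.41, and Pdcd4 fell by 0.71. Abce1 rose by 0.64 and Etf1, the release factor that reads stop codons, by 0.38. Of the kinases and mTORC1 genes Akt1s1 fell by 0.52 and Mknk1, a kinase of eIF4E, by 0.26. In Rb KO against control crypts 4 of 53 rose and 3 fell, beside 7.33% and 2.97% of all genes; Deptor, an inhibitor of mTOR, fell by 0.47, Pdcd4 by 0.51, and Mtrf1l rose by 0.49.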

How the data were processed

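The authors deposited log2 expression values of 45101 probe sets on 30 arrays. How they were normalized and summarized is not given in the sources used here, and per the labels RNA was isolated from villi or crypts. Between 285 and 596 values were identical on 2 arrays of a tissue, and at most 1 on arrays of different tissues, so the tissues were taken as normalized separately.

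Symbols came from the platform annotation, without probe sets of several symbols. Each gene was represented by the probe set of highest mean, and genes whose mean exceeded 5.33, the 30th percentile, entered the tests. Of the 58 factor genes 42 had more than 1 probe set. Each tissue was fitted over its 3 genotypes in R 4.3.3 by limma 3.58.1 with no covariate, followed by Benjamini-Hochberg adjustment of the p-values. The difference between tissues was an interaction over all arrays. Same-numbered villi and crypts within a genotype shared their deviations from the group means in 15 of 15 pairs (r 0.246 to 0.560), so a number was read as an animal, and the interaction also has a fit with the animal as a block. The fits were tested on simulated data. All values of an array are given for the 4 genes of smallest p in each comparison and for Eif4ebp1, Eif2s3x, Eif2s3y, Eef1a1 and Eef2; others are named where they passed. The genes and lists were chosen with earlier results of these data known. The alternatives varied the choice of probe set, filters, normalizations, arrays in the fit, limma settings, covariates and arrays left out. Promoter sequences are from RefSeq's table for GRCm38.p6, and the deposited expression files name no build. Figures used matplotlib 3.10.9.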

Additional observations from a re-analysis of the deposited data

Results flagged for a closer look

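Of 108 groups of 5 arrays tested for a sample far from the others, over the 18 genes given array by array, 5 had one, and chance gives about 1 in 20. Eif1a was at 9.45 in control villi 5, while the other controls lay at 8.98 to 9.11. Eif4enif1 was at 9.98 in Rb KO crypts 4, against 9.78 to 9.83. The others are in Rb KO animal 3, the only female of its group by Xist and Eif2s3y. Eif2s3y was at 3.19 in its villi, against 8.78 to 9.21 in the other Rb KO villi, and at 3.70 in its crypts, against 9.17 to 9.32. Eif2s3x was at 12.34 in its crypts, against 11.84 to 11.95.

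For 6 genes the difference between villi and crypts in an effect passed the interaction test without the animal as a block (limma, adjusted p). For loss of Rb, villi minus crypts was 0.47 for Eif4enif1 (1.83e-05), -0.70 for Eif2ak1 (5.87e-04), 0.47 for Eif3a (0.0151) and 0.47 for Eif3l (0.0212). For loss of Myc on top of Rb it was 0.72 for Eif1a (0.00325) and 0.52 for Eif4b (0.0303). With the animal as a block, since villi and crypts of a number deviated together, all 6 passed as well (adjusted p up to 0.00666, limma), and the counts were 10 for loss of Rb and 8 for loss of Myc.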

How the results depend on the processing

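For the 72 results of single genes, 1041 values were recomputed under alternatives: 885 kept their direction and side of the threshold, 137 were weaker, 13 stronger and 6 reversed. The cause of these changes was not tested. The reversed values were, in villi, Eif6 in Rb KO against control with the mean of its probe sets (-0.0103) or that of largest variance (-0.20) and Eif2ak1 in DKO against control with that of largest variance (0.17), and in Rb KO against control crypts Eif4ebp2 with the mean (-0.0255) or that of largest variance (-0.0788) and Eif6 with that of largest variance (-0.0502).

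Of the counts of the 58 genes past the threshold, that of DKO against Rb KO crypts (17) moved by over 1.5 times only with all 30 arrays in the fit (8), as did that of DKO against control crypts (23, then 13). Rb KO against control villi (10, beside 30.5% of all genes) gave 21 with all 30 arrays (35.6%), 20 without control animals 1 and 4 (34.2%) and 5 without Rb KO animals 4 and 5 (25%). DKO against Rb KO villi (1, beside 7.83% of all genes) gave 18 with the crypt marker score (17.5%) and 9 with all 30 arrays (14.1%). It gave 4 with the GAPDH difference, 3 with the mean of probe sets, the probe set of largest variance, the 2 groups alone or sex, and 2 with the 50th percentile, median centring, trend and robust, the replicate block, the clock index or without Rb KO animals 4 and 5. In these last settings 3.81% to 9.49% of all genes passed. The share of all genes thus moves with the setting, and a count given without it cannot be read as particular to the 58 genes. DKO against control villi (7) gave 17 with the crypt marker score, 11 with all 30 arrays and 4 with the clock index or the GAPDH difference. Rb KO against control crypts (5) gave 2 with the probe set of largest variance, the 2 groups alone or without Rb KO animals 4 and 5, and 3 with no filter, all 30 arrays, the replicate block, the GAPDH difference or without control animals 1 and 4. The difference between tissues gave 10 in place of 4 for loss of Rb with the replicate block (animal), 13 without control animals 1 and 4 and 2 without Rb KO animals 4 and 5, and 8 in place of 2 for loss of Myc with that block. Leaving out each array in turn gave, in the order of the comparisons, 7 to 14, 1 to 2 and 5 to 7 in villi, 2 to 5, 14 to 19 and 17 to 23 in crypts, and leaving out an animal 2 to 12 and 1 to 2 for the interactions. In Rb KO against control crypts the count fell to 2 without control 3 or 4 or Rb KO 1 or 3 and to 3 without control 2; DKO against Rb KO villi gave 2 without Rb KO 2, and the interaction for Myc 1 without Rb KO 1, 2, 3 or 4 or DKO 3, 4 or 5.

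Same-numbered arrays of different genotypes did not pair (r -0.274 to 0.419, median 0.036, 13 of 30 above 0.1), so the replicate block within a tissue is only a check. The GAPDH difference and the animals left out together were chosen after seeing the data. Precision is bounded by how many arrays each group has, and detection per probe set is not given by the values.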
